A study of Mus musculus with 36 samples.

Results

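The genes described here encode the subunits of the NuRD complex (nucleosome remodelling and deacetylase) that remodel nucleosomes, hold the complex together or read DNA methylation. They were the rows of the deposited count table named Chd3, Chd4, Chd5, Mta1, Mta2, Mta3, Mbd2, Mbd3, Gatad2a or Gatad2b. That gave 10 genes of 55335, picked out of the table by name, and all 10 passed the filter on low counts that left 17394 genes for testing.

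NuRD joins an ATP-driven helicase of the CHD family to the histone deacetylases HDAC1 and HDAC2. MTA proteins form the scaffold that binds the deacetylases and the histone chaperones RBBP4 and RBBP7. MBD2 and MBD3 occupy the complex in a mutually exclusive way: MBD2 binds methylated CpG sites, while MBD3 does so weakly, and the GATAD2 proteins bridge the MBD subunit to the CHD subunit. In embryonic stem cells, NuRD containing MBD3 is known for tempering pluripotency genes and for allowing cells to leave the pluripotent state.

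The libraries came from cultured mouse embryonic stem cells in 12 groups of 3 libraries. The groups were DMSO, BPK25 and IAA, each at days 0, 2, 4 and 6. The labels use the name embryonic stem cells at every day. In each treatment the summed stem cell markers were lower at days 4 and 6 than at day 0. DMSO, a common solvent, was the control. BPK25 is known here by its code name, and a compound of that name has been reported to lower NuRD proteins in human T cells. IAA is the plant hormone auxin, used to deplete a protein that carries a degron tag, and the series title concerns NuRD and sites of the architectural protein CTCF. The tagged protein, the doses, the event that sets day 0 and the number of clones are not named in the labels used here. Whether replicates were cultured apart is not stated either, so p-values reflect library-to-library spread that may be technical. The cultures could hold fibroblast feeder cells, since the protocols describe irradiated mouse feeders.

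Library totals ran from 6621288 to 16497799 counts over genes. The 10 embryonic stem cell markers were detected in every group, and their summed level ran from 2980 to 3100 CPM (counts normalised to a common total) in DMSO at day 0 and from 826 to 841 CPM at day 6. In IAA that sum was 4220 to 4270 CPM at day 0, 1610 to 1640 CPM at day 2 and 815 to 839 CPM at day 6, and in BPK25 at day 4 it was 1130 to 1150 CPM against 1250 to 1350 CPM in DMSO. The 14 fibroblast markers summed to 184 to 187 CPM in DMSO at day 0, with Twist2 at 0, and to 399 to 410 CPM at day 6. They summed to 585 to 587 CPM in IAA at day 6. In BPK25 at day 4 they summed to 196 to 204 CPM, with Lum and Dcn at 0, against 260 to 274 CPM in DMSO. Lum and Dcn were also at 0 in IAA at day 2, with a sum of 256 to 270 CPM. Lum was at 0 in IAA at day 0 too. Differentiating cells also make several of these collagens. The part of these marker changes in the results below was not tested, and in bulk RNA fewer cells of a type and less RNA per cell cannot be told apart.

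Per length of exon, Chd4 was the most abundant of the 10 transcripts and Chd5 the least abundant in each of the 12 groups. On the scale of CPM per kilobase of merged exons, DMSO at day 0 gave 135.3 for Chd4, 91.23 for Mta2, 80.35 for Mbd3, 57.24 for Mta1 and 50.0 for Mta3. The same scale gave 40.1 for Gatad2a, 13.69 for Mbd2, 9.927 for Chd3, 6.548 for Gatad2b and 4.578 for Chd5, and no neighbours in that order overlapped between their 3 libraries. By day 6 of IAA the order had moved among the middle genes: Chd4 stood at 201.4, Mta1 at 86.26, Mbd3 at 60.37 and Mta2 at 60.16 CPM per kilobase, and the libraries of Mbd3 and Mta2 overlapped. The ratio of the highest to the lowest of the 12 group means was 6.12 for Chd5, 3.02 for Mbd2, 2.16 for Chd3 and 2.04 for Gatad2b. It was 1.85 for Mta3, 1.7 for Chd4, 1.65 for Mta2, 1.58 for Mta1, 1.51 for Mbd3 and 1.41 for Gatad2a. With the longest transcript as the length, Chd4 remained the highest and Chd5 the lowest in each of the 12 groups, but Mta3 then stood above Mta1 in DMSO at day 0, and Mta2 above Mbd3 in IAA at day 6.

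**Figure D1:**
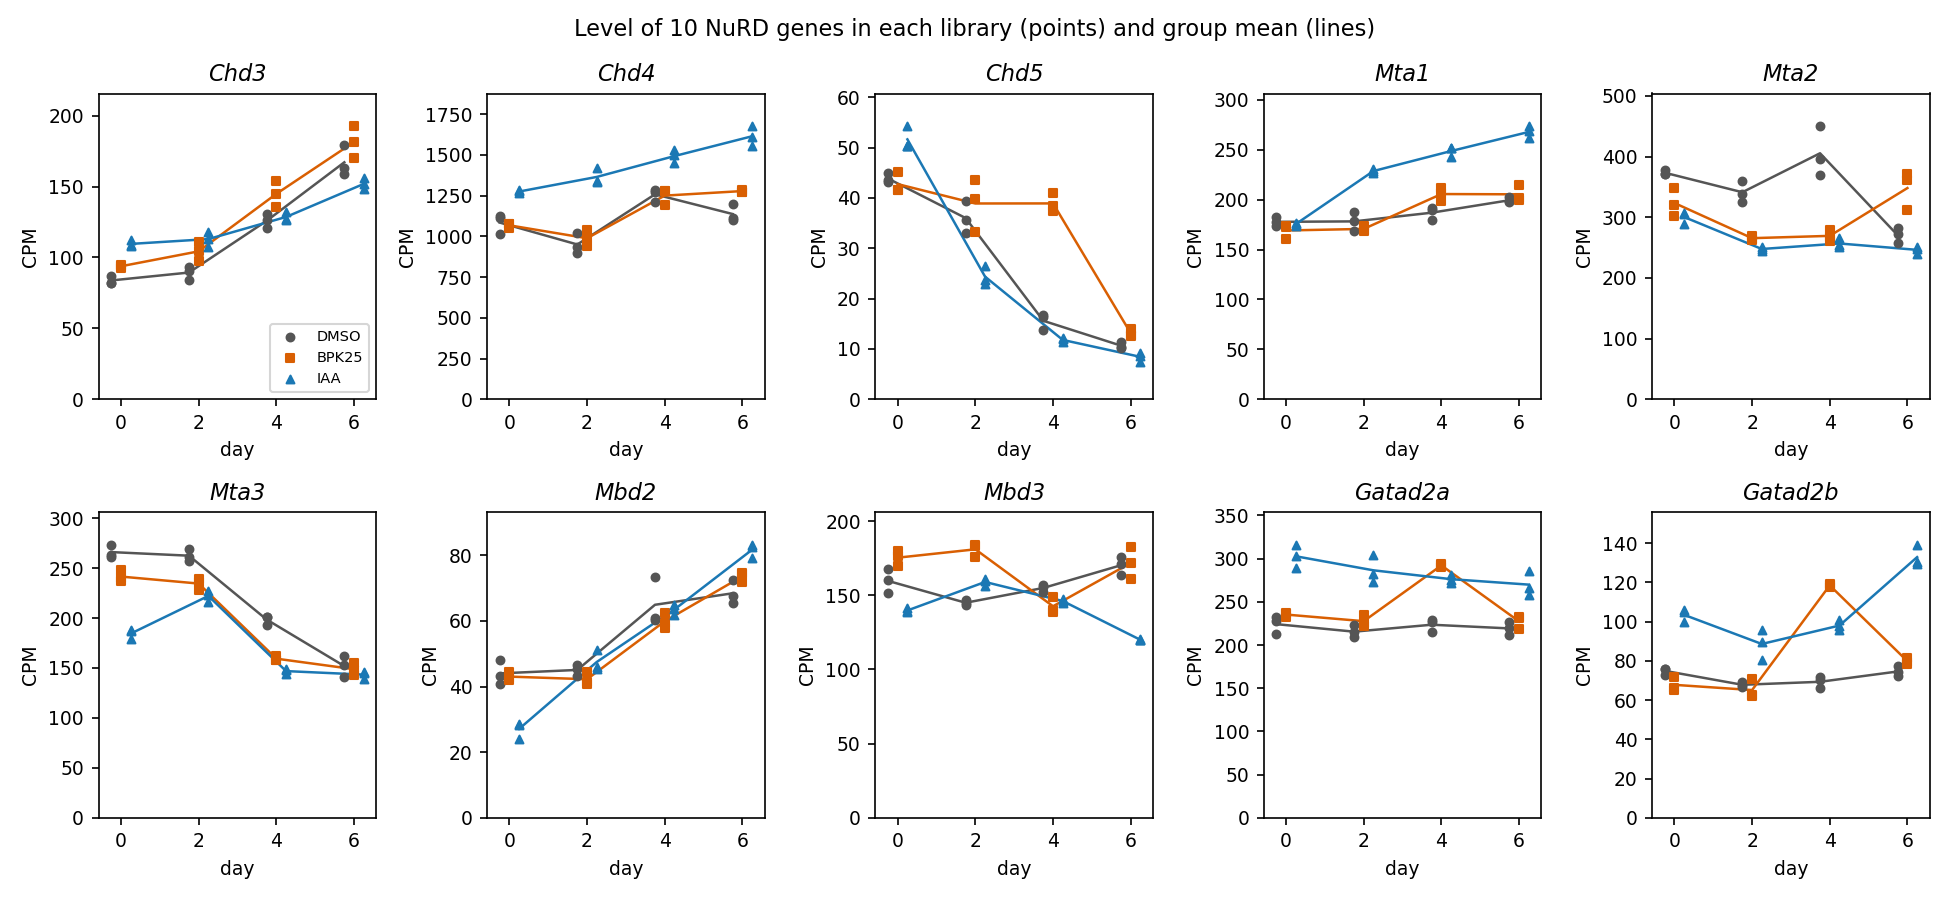
Level of each NuRD gene in CPM (vertical axis) by day (horizontal axis), with 1 point per library and lines through the means of 3 libraries; points are offset sideways by treatment. Chd5 fell from 43.1 to 44.9 CPM at day 0 of DMSO to 10.12 to 11.39 CPM at day 6, and stayed at 37.38 to 40.91 CPM in BPK25 at day 4.

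CHD4 is the main remodelling helicase of NuRD in embryonic stem cells. Its gene (chr6:125095981-125130591 on GRCm38, plus strand) read 1114, 1014 and 1127 CPM in DMSO at day 0 and 1282, 1276 and 1268 CPM in IAA. At day 2 the DMSO libraries read 932.6, 1021 and 897.7 CPM and the IAA libraries 1333, 1340 and 1422 CPM. By day 6 the values were 1101, 1200 and 1111 CPM in DMSO and 1555, 1676 and 1613 CPM in IAA. The IAA libraries lay above the DMSO libraries at each of these days without overlap. Chd4 was higher in IAA at all 4 days, by log2 0.23 ± 0.04 at day 0, 0.52 ± 0.04 at day 2, 0.25 ± 0.04 at day 4 and 0.51 ± 0.04 at day 6 (± is an approximate standard error, the fold change over the root of the test's F).

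In BPK25 the Chd4 libraries read 1050, 1079 and 1075 CPM at day 0, overlapping DMSO, and the differences at days 0, 2 and 4 were -0.02, 0.06 and -0.01. At day 6 they read 1273, 1287 and 1275 CPM, above DMSO, a rise of 0.17 ± 0.04 (adjusted p = 0.0121). That call was lost without DMSO day 6 replicate 1 (0.146, adjusted p = 0.0974) or replicate 3 (0.151, adjusted p = 0.0714).

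CHD3 is the close relative of CHD4 that forms its own NuRD complexes. Chd3 (chr11:69343273-69369406, minus strand) read 86.88, 82.31 and 82.26 CPM in DMSO at day 0, 120.9, 130.3 and 126.3 CPM at day 4 and 159.0, 179.5 and 162.8 CPM at day 6. It rose with the days of DMSO, by 0.59 ± 0.06 at day 4 and 0.99 ± 0.06 at day 6, and these 3 sets of libraries did not overlap. IAA at day 0 read 108.1, 112.1 and 108.5 CPM, above DMSO by 0.39 ± 0.06, and at day 2 it was higher by 0.34 ± 0.06. At day 4 the difference was 0.03, and at day 6 Chd3 was lower by 0.14 ± 0.05 with adjusted p = 0.0162. The day 6 call was lost without DMSO day 6 replicate 2 (-0.076, adjusted p = 0.213), without IAA day 6 replicate 1 (-0.112, adjusted p = 0.0909) and with DESeq2 (-0.118, adjusted p = 0.0625). BPK25 was above DMSO by 0.23 ± 0.06 at day 2 and 0.20 ± 0.05 at day 4, while the differences at days 0 and 6 were 0.16 and 0.12. These passed, respectively, with only the libraries compared (0.169, adjusted p = 0.0416) and without DMSO day 6 replicate 2 (0.172, adjusted p = 0.0293). Without DMSO day 2 replicate 3 the day 2 value was 0.18 with adjusted p = 0.0562.

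CHD5 is the CHD remodeller best known from neurons and testis. Chd5 (chr4:152338651-152390194, plus strand) read 43.1, 44.9 and 43.61 CPM in DMSO at day 0, 13.76, 16.3 and 16.75 CPM at day 4 and 10.49, 11.39 and 10.12 CPM at day 6. Chd5 fell by 1.503 ± 0.09 at day 4 and fell by 2.04 ± 0.09 at day 6 on the log2 scale, the largest change of the 10 genes over the days of DMSO. In BPK25 at day 4 the libraries read 37.38, 40.91 and 38.48 CPM, all above those of DMSO at that day and just below the BPK25 libraries of day 0, which read 41.52, 41.64 and 45.11 CPM. The rise over DMSO at day 4 was 1.32 ± 0.09 (adjusted p = 4.65e-18), the largest difference from DMSO among the 10 genes in either treatment. At day 6 of BPK25 Chd5 had reached 12.83, 13.92 and 12.68 CPM, and the difference of 0.30 ± 0.11 did not pass the test (adjusted p = 0.089).

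Chd5 in IAA differed from DMSO in both directions. At day 0 it read 54.25, 50.35 and 50.34 CPM and was higher by 0.24 ± 0.07, and at day 2 it read 26.43, 23.69 and 22.99 CPM against 33.12, 39.36 and 35.55 CPM in DMSO, lower by 0.57 ± 0.08. It was lower by 0.39 ± 0.11 at day 4 and by 0.35 ± 0.12 at day 6. The day 6 call was lost without DMSO day 6 replicate 2 (-0.3, adjusted p = 0.0512) or IAA day 6 replicate 1 (-0.252, adjusted p = 0.131).

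MTA1, MTA2 and MTA3 are alternative scaffolds of the complex. Mta2 and Mta3 were both called lower than in DMSO at days 0, 2 and 4 of BPK25 and of IAA. Mta1 was not called lower in either treatment at any day. Mta1 (chr12:113098278-113137206, plus strand) read 202.1, 198.4 and 197.5 CPM in DMSO at day 6 and 273.4, 261.4 and 268.4 CPM in IAA. The libraries were far apart, and Mta1 was higher in IAA by 0.36 ± 0.04 at day 2, 0.41 ± 0.04 at day 4 and 0.43 ± 0.04 at day 6, with a difference of -0.02 at day 0. In BPK25 it was called at day 4, where it read 211.5, 198.9 and 206.2 CPM against 191.1, 179.6 and 189.9 CPM, a rise of 0.14 ± 0.04. At the other 3 days of BPK25 its differences lay between -0.07 and 0.04.

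Mta2 (chr19:8941875-8952303, plus strand) was lower than in DMSO in 7 of the 8 comparisons and higher in the eighth. In DMSO at day 4 it read 396.1, 370.3 and 449.9 CPM, against 279.6, 261.4 and 267.0 CPM in BPK25 and 265.9, 250.5 and 253.9 CPM in IAA. Both treatments lay wholly below DMSO, by 0.585 ± 0.05 for BPK25 and 0.66 ± 0.05 for IAA. Mta2 was also lower at days 0 and 2, by 0.21 ± 0.05 and 0.36 ± 0.05 in BPK25 and by 0.31 ± 0.06 and 0.46 ± 0.06 in IAA. At day 6 the direction in BPK25 turned: BPK25 read 361.3, 370.5 and 312.6 CPM, above 256.9, 271.7 and 282.2 CPM in DMSO, a rise of 0.36 ± 0.05 (adjusted p = 7.85e-06). Mta2 itself fell by 0.47 ± 0.05 between days 0 and 6 of DMSO, from day 0 values of 370.9, 377.3 and 372.0 CPM, which lay above each of the BPK25 libraries of day 6.

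Some Mta2 calls depended on the libraries kept. In IAA at day 6 the fall of 0.13 ± 0.06 had adjusted p = 0.0323. Its call was lost with RLE size factors (-0.115, adjusted p = 0.0681) and with DESeq2 (-0.115, adjusted p = 0.0925). It was also lost without DMSO day 6 replicate 2 (adjusted p = 0.0848) or replicate 3 (-0.096, adjusted p = 0.176), and without IAA day 6 replicate 1 (adjusted p = 0.148) or replicate 3 (adjusted p = 0.0629). Between days 0 and 4 of DMSO the difference of 0.12 ± 0.05 was not called, but it was with no filter (0.128, adjusted p = 0.0314) and without DMSO day 4 replicate 2 (0.177, adjusted p = 0.00918). In BPK25 at day 0 the difference was -0.162 without BPK25 day 0 replicate 2, with adjusted p = 0.0983.

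Mta3 (chr17:83706163-83821516, plus strand) fell over the days of DMSO, from 263.2, 273.3 and 261.4 CPM at day 0 to 201.4, 192.5 and 201.5 CPM at day 4 and 161.9, 140.6 and 153.1 CPM at day 6. These libraries did not overlap, and the falls were 0.42 ± 0.04 and 0.80 ± 0.04. IAA read 178.5, 186.9 and 187.7 CPM at day 0, already lower by 0.53 ± 0.04, and it was lower by 0.24 ± 0.04 at day 2 and 0.43 ± 0.04 at day 4. BPK25 was lower by 0.16 ± 0.04 at day 2 and by 0.32 ± 0.04 at day 4, where it read 161.9, 157.7 and 158.3 CPM. At day 6 neither treatment passed the test, with differences of -0.04 in BPK25 and -0.09 in IAA, although IAA passed without DMSO day 6 replicate 2 (-0.129, adjusted p = 0.0127). The small fall of 0.14 ± 0.04 in BPK25 at day 0 lost its call without BPK25 day 0 replicate 1 (adjusted p = 0.0938) or replicate 2 (adjusted p = 0.0995), without DMSO day 0 replicate 1 (adjusted p = 0.0553) or replicate 2 (adjusted p = 0.138), and with no filter on low counts (adjusted p = 0.234).

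Taking the MTA genes as shares of their summed CPM per kilobase, Mta2 held 46.0% ± 0.344 (SD, n = 3) in DMSO at day 0, Mta1 28.8% ± 0.29 and Mta3 25.2%. In DMSO at day 6 Mta1 held 40.4% ± 0.895 and Mta2 41.6% ± 1.68, and in IAA at day 6 Mta1 held 49.8% ± 0.832 and Mta2 34.7%. BPK25 at day 4 gave Mta1 40.9% ± 0.246 and Mta2 40.6% ± 0.274, against 30.7% ± 1.21 and 50.3% ± 1.98 in DMSO of that day. The summed MTA level was 162 CPM per kilobase in BPK25 at day 4 and 196.6 in DMSO. With the longest transcript as the length, the shares in DMSO at day 0 were 45.3% for Mta2, 23.9% for Mta1 and 30.8% for Mta3, so the order of Mta1 and Mta3 turned. In BPK25 at day 4 they were then 35.1% for Mta1 and 41.5% for Mta2, against 25.9% and 50.5% in DMSO, and in IAA at day 6 they were 43.7% and 36.2%. The order of the MTA genes thus depends on the length used, while Mta1 held a larger share in BPK25 than in DMSO at day 4 with either length. These shares are a description with no test.

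**Figure D2:**
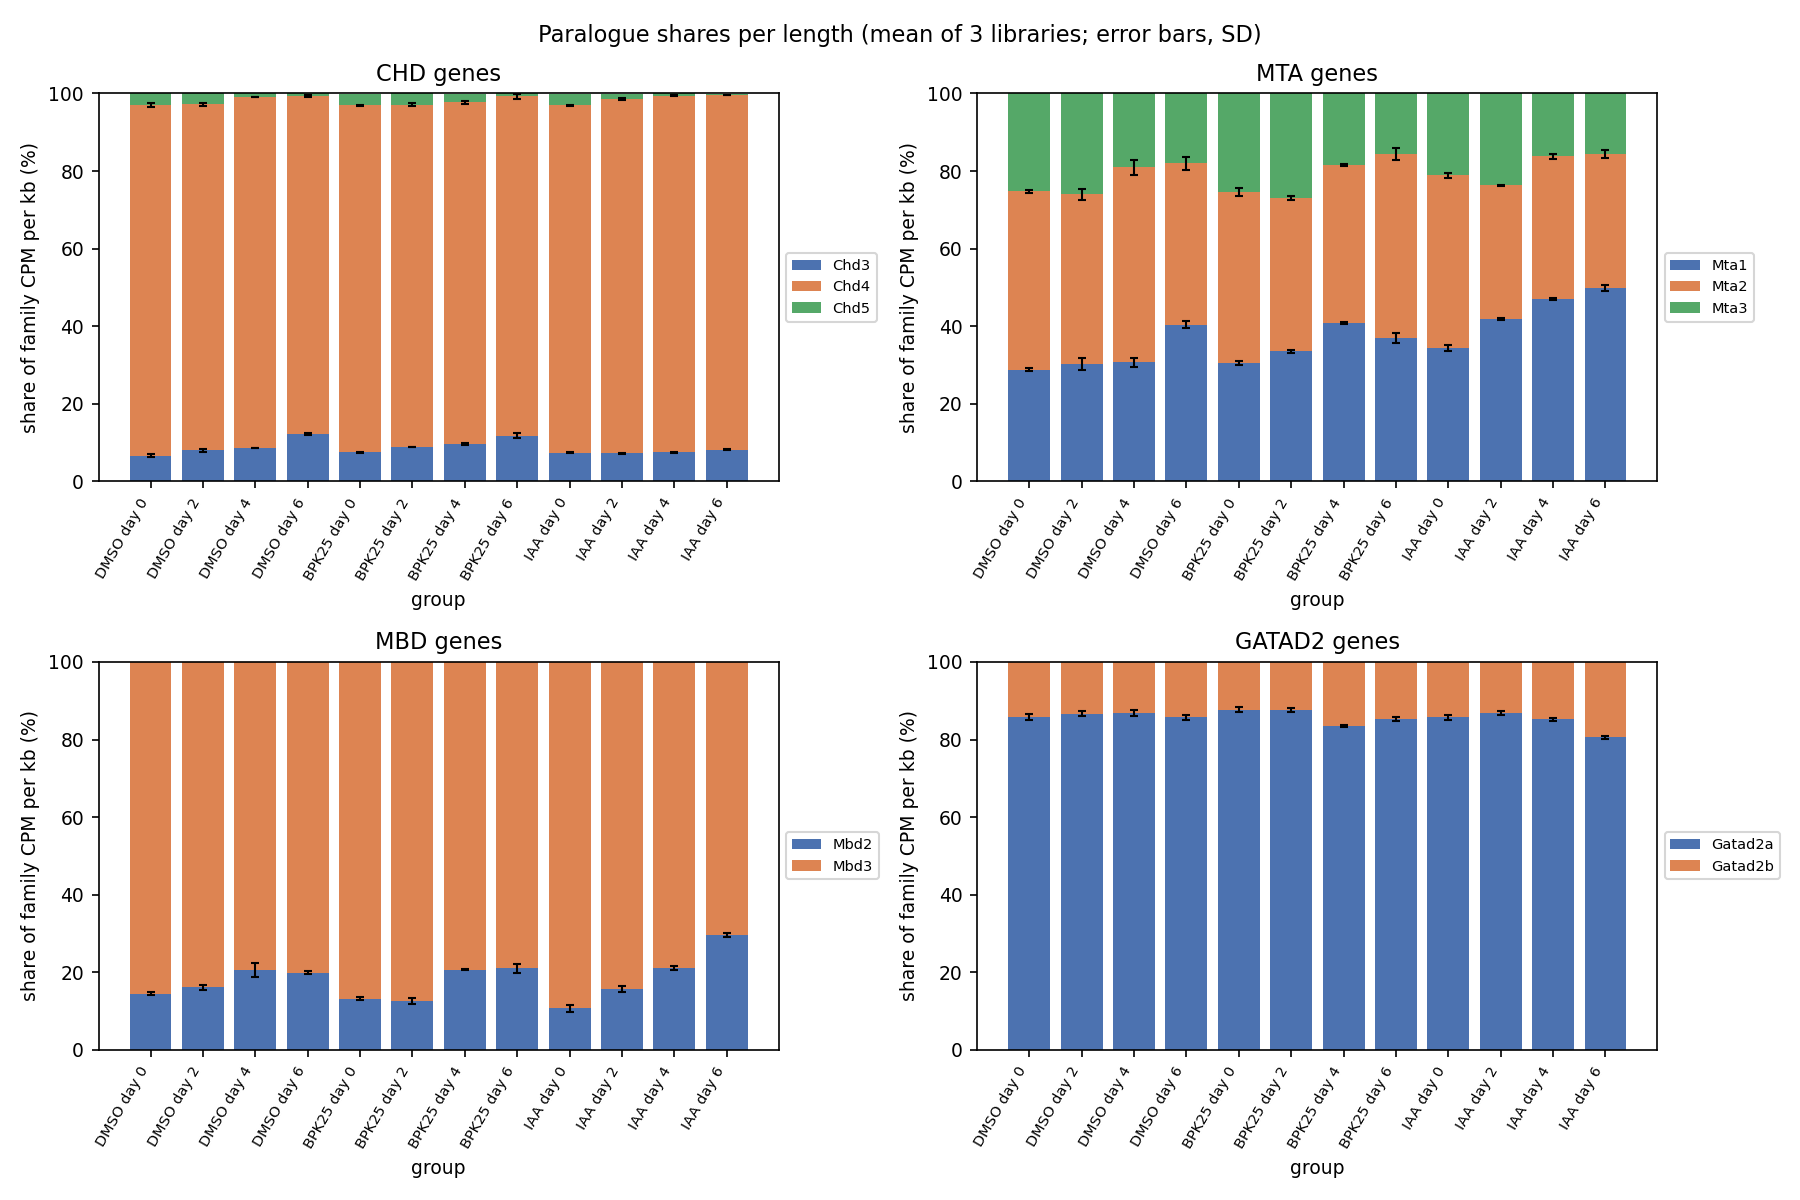
Share of each paralogue in its family's summed CPM per kilobase (vertical axis, %) for the 12 groups (horizontal axis); bars stack the means of 3 libraries and each error bar is the SD of the share of the segment it tops, with none on the top segment. Mta1 widens from 28.8% in DMSO at day 0 to 49.8% in IAA at day 6, and Mbd2 from 14.5% to 29.6%.

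MBD3 is the MBD subunit that prevails in embryonic stem cells. Mbd3 (chr10:80392539-80399550, minus strand) read 160.1, 151.4 and 167.5 CPM in DMSO at day 0 and 163.9, 175.8 and 170.9 CPM at day 6, and no day of DMSO passed the test against day 0. It passed at day 2 without DMSO day 0 replicate 2 (-0.176, adjusted p = 0.024) and at day 6 without DMSO day 0 replicate 3 (0.126, adjusted p = 0.0196). In IAA at day 6 it read 119.6, 120.4 and 119.8 CPM, lower by 0.50 ± 0.04 (adjusted p = 2.2e-14), with all 3 libraries well below DMSO. IAA was also lower at day 0 by 0.19 ± 0.04 and higher at day 2 by 0.13 ± 0.04. BPK25 at day 2 read 184.0, 175.9 and 182.9 CPM against 144.5, 147.0 and 143.3 CPM in DMSO, a rise of 0.32 ± 0.04 with no overlap.

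The smaller BPK25 changes of Mbd3 were less secure. The rise of 0.14 ± 0.04 at day 0 (adjusted p = 0.041) had adjusted p = 0.0889 with no filter on low counts and 0.0633 with only the libraries compared. Leaving out BPK25 day 0 replicate 2 or 3 gave adjusted p = 0.106 or 0.148, and leaving out DMSO day 0 replicate 1 or 2 gave 0.093 or 0.269. The fall of 0.12 ± 0.04 at day 4 had adjusted p = 0.0513 with no filter, 0.0569 and 0.0708 without BPK25 day 4 replicate 1 or replicate 3, and 0.051 without DMSO day 4 replicate 2.

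MBD2 is the subunit that binds methylated DNA. Mbd2 rose over the days of DMSO, from 43.1, 40.83 and 48.11 CPM at day 0 to 60.32, 61.01 and 73.44 CPM at day 4 and 65.4, 72.41 and 67.46 CPM at day 6, by 0.55 ± 0.07 and 0.64 ± 0.07. The third library of day 4 stood above the other two. In IAA at day 0 it read 28.71, 28.4 and 24.15 CPM, lower than DMSO by 0.68 ± 0.08 (adjusted p = 6.04e-10), and at day 6 it read 83.21, 79.33 and 82.55 CPM, higher by 0.26 ± 0.06. Between days 0 and 6 of IAA the mean went from 27.09 to 81.7 CPM, the lowest and the highest of the 12 groups. BPK25 did not pass the test for Mbd2 at any day, with differences from -0.10 to 0.11.

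Mbd2 held 14.5% of the summed Mbd2 and Mbd3 level per kilobase in DMSO at day 0 and 19.9% at day 6. In IAA the share was 10.7% at day 0 and 29.6% at day 6. With the longest transcript as the length, the Mbd2 share was 19% in DMSO at day 0 and 25.5% at day 6, and 14.1% and 36.7% in IAA. Mbd3 remained the larger in each group with either length.

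GATAD2A and GATAD2B link the MBD subunit to the CHD subunit. Gatad2a (chr8:69907076-69996384, minus strand) and Gatad2b (chr3:90293178-90363407, plus strand) were called in the same comparisons against DMSO: higher in IAA at all 4 days and higher in BPK25 at day 4. Neither passed the test at any day of DMSO against day 0. The 2 genes were called together, and Chd5 also rose in BPK25 at day 4. The 250 bases before the RefSeq start of these 3 genes are shown (GRCm38.p6, 5′ to 3′ on the gene's strand). Chd3 and Mta1 rose in BPK25 at day 4 too and are not shown, and Chd5 was lower in IAA at days 2, 4 and 6. Whether these sequences bear on the calls was not tested. Capitals mark GC boxes (GGGCGG) and CCAAT boxes (CCAAT) on either strand. The windows are chr8:69996385-69996634 (minus), chr3:90292931-90293180 (plus) and chr4:152338401-152338650 (plus).
Gatad2a: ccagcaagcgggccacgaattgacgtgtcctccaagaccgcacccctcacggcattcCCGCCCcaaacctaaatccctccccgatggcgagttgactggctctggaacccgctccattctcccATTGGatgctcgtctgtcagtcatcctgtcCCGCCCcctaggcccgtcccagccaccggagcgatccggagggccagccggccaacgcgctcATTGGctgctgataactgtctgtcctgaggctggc
Gatad2b: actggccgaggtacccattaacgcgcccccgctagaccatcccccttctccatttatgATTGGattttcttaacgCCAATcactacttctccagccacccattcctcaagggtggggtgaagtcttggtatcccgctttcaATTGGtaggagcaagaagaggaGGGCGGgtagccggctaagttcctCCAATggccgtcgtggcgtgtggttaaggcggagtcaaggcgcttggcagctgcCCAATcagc
Chd5: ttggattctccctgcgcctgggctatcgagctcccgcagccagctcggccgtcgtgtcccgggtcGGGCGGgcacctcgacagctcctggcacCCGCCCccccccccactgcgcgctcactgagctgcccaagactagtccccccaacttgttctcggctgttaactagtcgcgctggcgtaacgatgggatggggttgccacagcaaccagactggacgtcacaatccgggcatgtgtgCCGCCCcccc

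The Gatad2b window held 5 CCAAT boxes and 1 GC box, the Gatad2a window 2 of each, and the Chd5 window 3 GC boxes and no CCAAT match. A CCAAT match was found in 33.8% of 32851 RefSeq windows of that length and a GC box in 32.7%. The Mbd3 window held 3 CCAAT boxes and 1 GC box. The Chd4 and Mta2 windows held 2 GC boxes each and the Mta1 window 3, with no CCAAT match. Each of the 7 windows thus held a GC box, the Mbd3, Chd4, Mta2 and Mta1 windows included. The E-box CACGTG (6.02% of windows) was found in none of the 7 members with a window, and the ETS core CCGGAAG (6.91% of windows) in Mta2, with 2 matches that overlap on opposite strands. The 7 windows held 12 to 39 CG dinucleotides, against a median of 6. These are matches of letters and not sites of binding.

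Gatad2b read 71.77, 70.17 and 66.1 CPM in DMSO at day 4 and 119.3, 118.5 and 117.7 CPM in BPK25, a rise of 0.77 ± 0.05 (adjusted p = 9.57e-18) between libraries that were far apart. In IAA at day 6 it read 130.3, 139.2 and 129.2 CPM against 72.53, 74.09 and 77.21 CPM, a rise of 0.83 ± 0.05 (adjusted p = 5.06e-20). IAA was higher by 0.46 ± 0.06 at day 0, 0.39 ± 0.06 at day 2 and 0.49 ± 0.05 at day 4. At days 0, 2 and 6 of BPK25 the differences were -0.15, -0.06 and 0.10, and the tests were not passed.

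Gatad2a read 215.5, 226.5 and 228.4 CPM in DMSO at day 4 and 289.8, 292.7 and 293.8 CPM in BPK25, a rise of 0.39 ± 0.04 with no overlap. In IAA at day 0 it read 302.6, 316.0 and 289.5 CPM against 228.1, 212.3 and 232.0 CPM, higher by 0.44 ± 0.04. The rise in IAA was 0.41 ± 0.04, 0.31 ± 0.04 and 0.30 ± 0.04 at days 2, 4 and 6. Per kilobase, the summed GATAD2 level was 62.62 in BPK25 and 46.04 in DMSO at day 4, and 59.89 in IAA and 45.74 in DMSO at day 6. Gatad2b held 14.1% of that sum in DMSO at day 0, 16.5% in BPK25 at day 4 and 19.4% in IAA at day 6. With the longest transcript as the length, these shares were 18.4%, 21.5% and 24.9%.

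**Figure D3:**
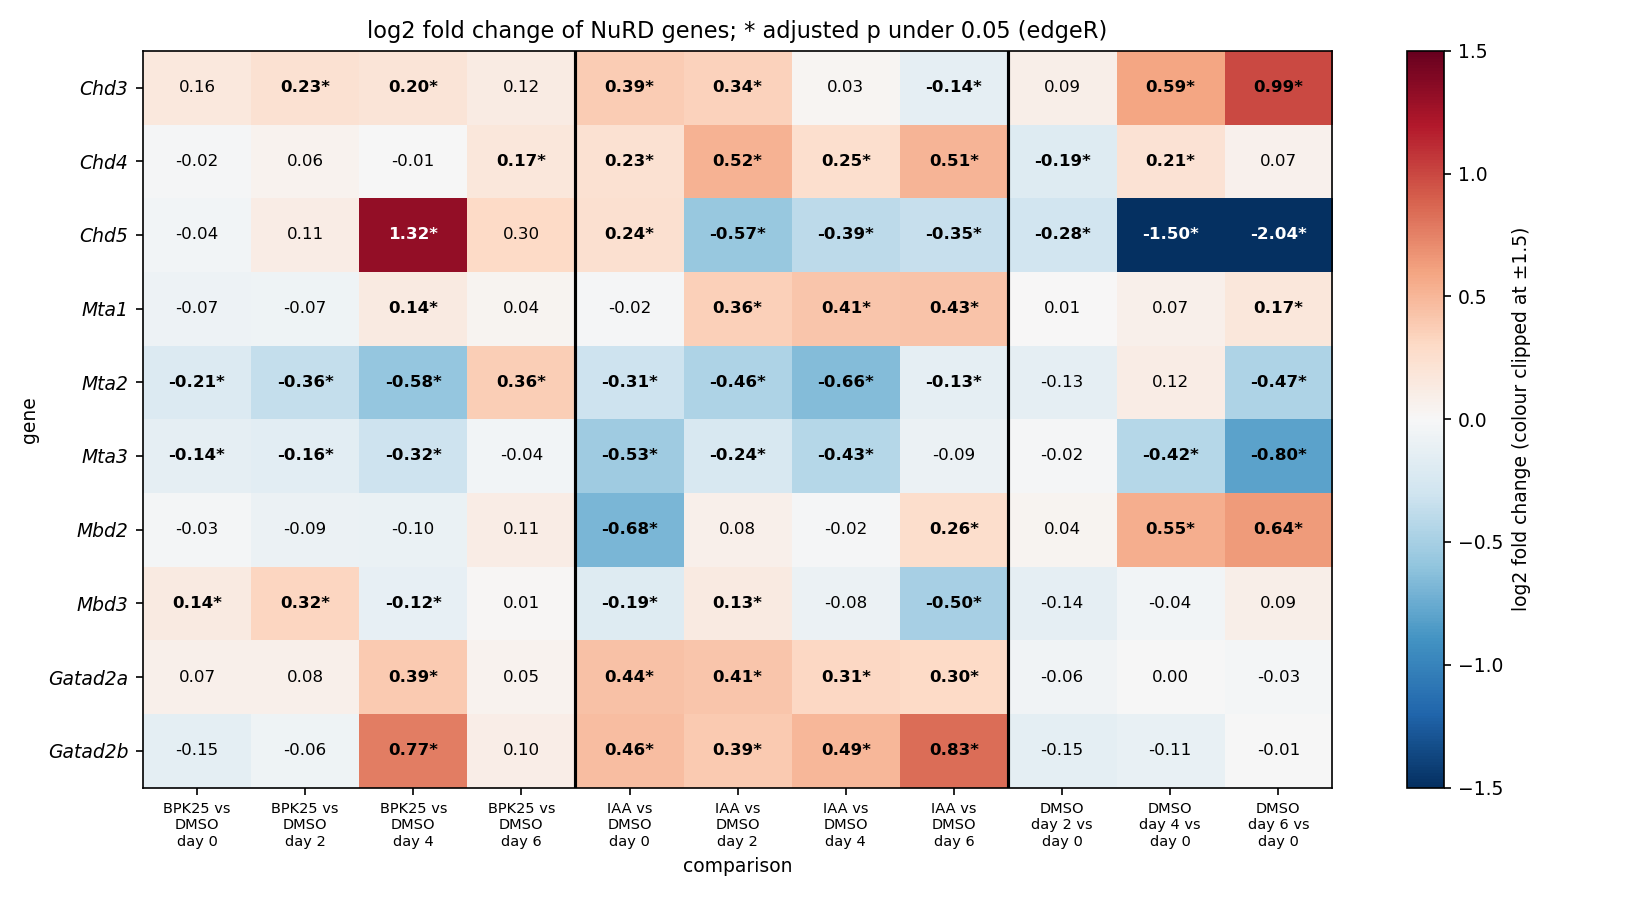
log2 fold change of each NuRD gene (rows) in 11 comparisons (columns), with the value in each cell and an asterisk where the adjusted p was under 0.05; colour runs from blue (lower) to red (higher) and is clipped at ±1.5. Gatad2a and Gatad2b are red in BPK25 at day 4 and in each IAA column, and Mta2 is blue in 7 of the 8 treatment columns.

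Counted over the 10 genes, BPK25 against DMSO gave 1 higher and 2 lower at day 0, where 3.32% of all genes tested were higher and 4.58% lower (7.90% in all). At day 2 it gave 2 higher and 2 lower, beside 6.40% higher and 7.12% lower of all genes (13.5%). At day 4, 5 were higher and 3 lower, beside 26.2% and 26.8% (53.0%), and at day 6, 2 were higher and 0 lower, beside 4.01% and 3.08% (7.09%). The median log2 difference over the 10 genes was -0.04 at day 0, 0.00 at day 2, 0.07 at day 4 and 0.10 at day 6, beside 0.00, 0.00, -0.01 and 0.00 over all genes. The day 0 count of 3 was 0 without BPK25 day 0 replicate 2, and 1 without DMSO day 0 replicate 1 or replicate 2. The day 6 count of 2 was 1 without DMSO day 6 replicate 1 or replicate 3. Shares of all genes, here and below, are over the 17394 genes tested, of which 9728 averaged 10 CPM or more. Shares among genes at levels like those of the members were not computed.

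IAA against DMSO gave 5 higher and 4 lower at day 0, beside 21.3% higher and 23.2% lower of all genes (44.5% in all), and 6 higher and 3 lower at day 2, beside 27.5% and 27.9% (55.4%). It gave 4 higher and 3 lower at day 4, beside 25.9% and 25.9% (51.9%), and 5 higher and 4 lower at day 6, beside 30.6% and 30.0% (60.6%). The medians were 0.11, 0.24, 0.01 and 0.09, beside -0.03, -0.01, 0.00 and 0.00 over all genes. The BPK25 and IAA comparisons of a day share their DMSO libraries.

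Over the days of DMSO, 0 of the 10 genes were higher and 2 lower at day 2, Chd4 and Chd5, beside 1.59% higher and 3.85% lower of all genes (5.44% in all). At day 4, 3 were higher and 2 lower, beside 26.0% and 24.4% (50.3%), and at day 6, 3 were higher and 3 lower, beside 33.2% and 29.5% (62.7%). At day 2 the fall of Chd4 was 0.19 ± 0.04, with overlapping libraries, and that of Chd5 was 0.285 ± 0.08. The Chd4 call was lost without DMSO day 0 replicate 1 (adjusted p = 0.0523) or replicate 3 (adjusted p = 0.0591), or without DMSO day 2 replicate 3 (adjusted p = 0.0917). The Chd5 call was lost without any 1 of DMSO day 0 replicates 1, 2 and 3 or DMSO day 2 replicates 1 and 3, with adjusted p from 0.0547 to 0.111. The count was 0 without DMSO day 0 replicate 1 or replicate 3 or DMSO day 2 replicate 3, and 1 without DMSO day 2 replicate 1.

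Set directly against IAA, BPK25 gave 3 higher and 5 lower at day 0, beside 24.8% higher and 23.1% lower of all genes (47.9% in all), and 2 higher and 5 lower at day 2, beside 29.2% and 28.4% (57.5%). It gave 4 higher and 2 lower at day 4, beside 27.2% and 27.1% (54.3%), and 4 higher and 5 lower at day 6, beside 27.7% and 28.8% (56.6%). Chd5 differed most at day 4, higher in BPK25 by 1.72 ± 0.09 (adjusted p = 2.68e-22), and it was higher by 0.68 ± 0.08 at day 2 and 0.65 ± 0.12 at day 6. At day 0 Chd5 was lower in BPK25 than in IAA, with a difference of -0.28 ± 0.07 (adjusted p = 0.000965). Chd4 was lower in BPK25 than in IAA at all 4 days, by 0.26 to 0.47. Mta2 did not pass this test at days 0, 2 and 4, with differences of 0.11 ± 0.05, 0.10 ± 0.06 and 0.07 ± 0.05, and at day 6 it was higher in BPK25 by 0.50 ± 0.06. Gatad2b was lower in BPK25 at day 0 by 0.61 ± 0.05, at day 2 by 0.46 ± 0.05 and at day 6 by 0.73 ± 0.05, but higher at day 4 by 0.27 ± 0.05. Mbd3 was higher in BPK25 by 0.52 ± 0.04 at day 6.

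Of these calls against IAA, 3 depended on single libraries. For Mbd2 at day 2 (-0.17) the adjusted p was 0.0987 and 0.0621 without BPK25 day 2 replicate 1 or replicate 3, and 0.203 without IAA day 2 replicate 3. For Mta3 at day 4 (0.12) it was 0.071 without BPK25 day 4 replicate 1, 0.0921 and 0.0527 without IAA day 4 replicate 1 or replicate 3, and 0.274 with no filter. For Mbd2 at day 6 (-0.15) it was 0.07 without BPK25 day 6 replicate 3, 0.0656 without IAA day 6 replicate 1, and 0.0828 with no filter. Conversely, Mta2 passed at day 0 without BPK25 day 0 replicate 2 (0.153, adjusted p = 0.031) and at day 2 with only the libraries compared (adjusted p = 0.0483). Chd3 at day 2 (-0.12) passed without BPK25 day 2 replicate 3 (adjusted p = 0.0151) or IAA day 2 replicate 2 (adjusted p = 0.0238).

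A joint test asked whether the difference from DMSO itself varied between the 4 days. For BPK25 it was passed by 8 of the 10 genes (47.1% of all genes passed), all but Chd3 (adjusted p = 0.585) and Mbd2 (adjusted p = 0.100). Without day 4, an alternative chosen after the data were seen, it was passed by 2 members, Mta2 and Mbd3, and by 1400 of all genes in place of 8196. The adjusted p was then 0.0775 for Gatad2b, 0.216 for Chd5 and 0.967 for Gatad2a. Chd4, at adjusted p = 0.0348 with all days, was not called with no filter (0.0679) or with only the libraries compared (0.0566). Leaving out BPK25 day 0 replicate 1, day 4 replicate 3 or day 6 replicate 1, 2 or 3, or DMSO day 0 replicate 1 or 3, day 4 replicate 2 or day 6 replicate 1 or 3, also ended the Chd4 call, with adjusted p from 0.0508 to 0.116. Mta1 was not called with no filter (0.104), and Mbd2 was called without DMSO day 6 replicate 2 (0.0427). For IAA the joint test was passed by 9 of the 10 (70.1% of all genes), all but Gatad2a (adjusted p = 0.0866). Gatad2a was called without IAA day 0 replicate 3 (0.0351), IAA day 2 replicate 1 (0.0327), IAA day 6 replicate 2 (0.0301) or DMSO day 6 replicate 3 (0.038).

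The other NuRD subunits and related families were followed in lists of fixed members. Of the 6 deacetylase, chaperone and small subunit genes, 1 rose and 3 fell in BPK25 at day 4 (median -0.16) and 2 rose and 3 fell in IAA at day 6 (median -0.38). Hdac1, a catalytic deacetylase of NuRD, fell by 0.50 ± 0.05 in BPK25 at day 4, from 149.9 ± 6.308 to 105.6 ± 2.97 CPM, and by 0.98 ± 0.05 in IAA at day 6, from 127.1 ± 7.252 to 64.48 ± 3.701 CPM (SD, n = 3). Rbbp7, a histone chaperone, rose by 0.38 ± 0.04 and by 1.03 ± 0.04 in the same comparisons, while its paralogue Rbbp4 fell by 0.46 ± 0.05 and 0.32 ± 0.05. At day 2 of BPK25, 3 of the 6 rose and 1 fell, with Rbbp4 down by 0.38 ± 0.04, beside 6.40% higher and 7.12% lower of all genes (13.5% in all).

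Among 14 partners and recruiters of NuRD, 4 rose and 4 fell in BPK25 at day 4 (median 0.02) and 7 rose and 5 fell in IAA at day 6 (median 0.13). Adnp, which forms a separate complex with CHD4, rose by 0.64 ± 0.04 in BPK25 at day 4, and Sall2 fell by 1.02 ± 0.10. In IAA at day 6 Bcl11b rose by 1.48 ± 0.13, from 4.681 ± 0.2381 to 12.91 ± 1.189 CPM. Zfpm1, a cofactor of GATA factors that binds NuRD, rose there by 0.62 ± 0.07. Among those that fell, Bend3 read 21.85 ± 2.37 CPM (SD) in IAA against 35.6 ± 1.97 CPM in DMSO.

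The 6 CHD genes that are not NuRD remodellers gave 4 higher and 2 lower in BPK25 at day 4 (median 0.24) and 5 higher and 1 lower in IAA at day 6 (median 0.28). Chd8 was lower in both, by 0.77 ± 0.05 and 0.58 ± 0.05, and Chd2 and Chd1 were higher in both. Chd9 was also higher in BPK25 at day 4, at 171.6 ± 6.37 CPM (SD) against 107.3 ± 6.89 CPM in DMSO. Of the 5 other MBD genes, 3 rose and 2 fell in BPK25 at day 4 (median 0.25) and 1 rose and 2 fell in IAA at day 6 (median -0.16). Mbd4, which carries a DNA glycosylase, fell by 0.82 ± 0.08 in BPK25 at day 4 and by 0.44 ± 0.08 in IAA at day 6. Of those that rose, Mbd6 went from 24.9 ± 0.514 to 33.49 ± 1.44 CPM (SD) in BPK25 at day 4. In IAA at day 6 Mbd1 rose, from 55.4 ± 4.45 to 80.94 ± 5.46 CPM. The shares called in these lists stand beside 53.0% of all genes in BPK25 at day 4 and 60.6% in IAA at day 6.

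**Figure D4:**
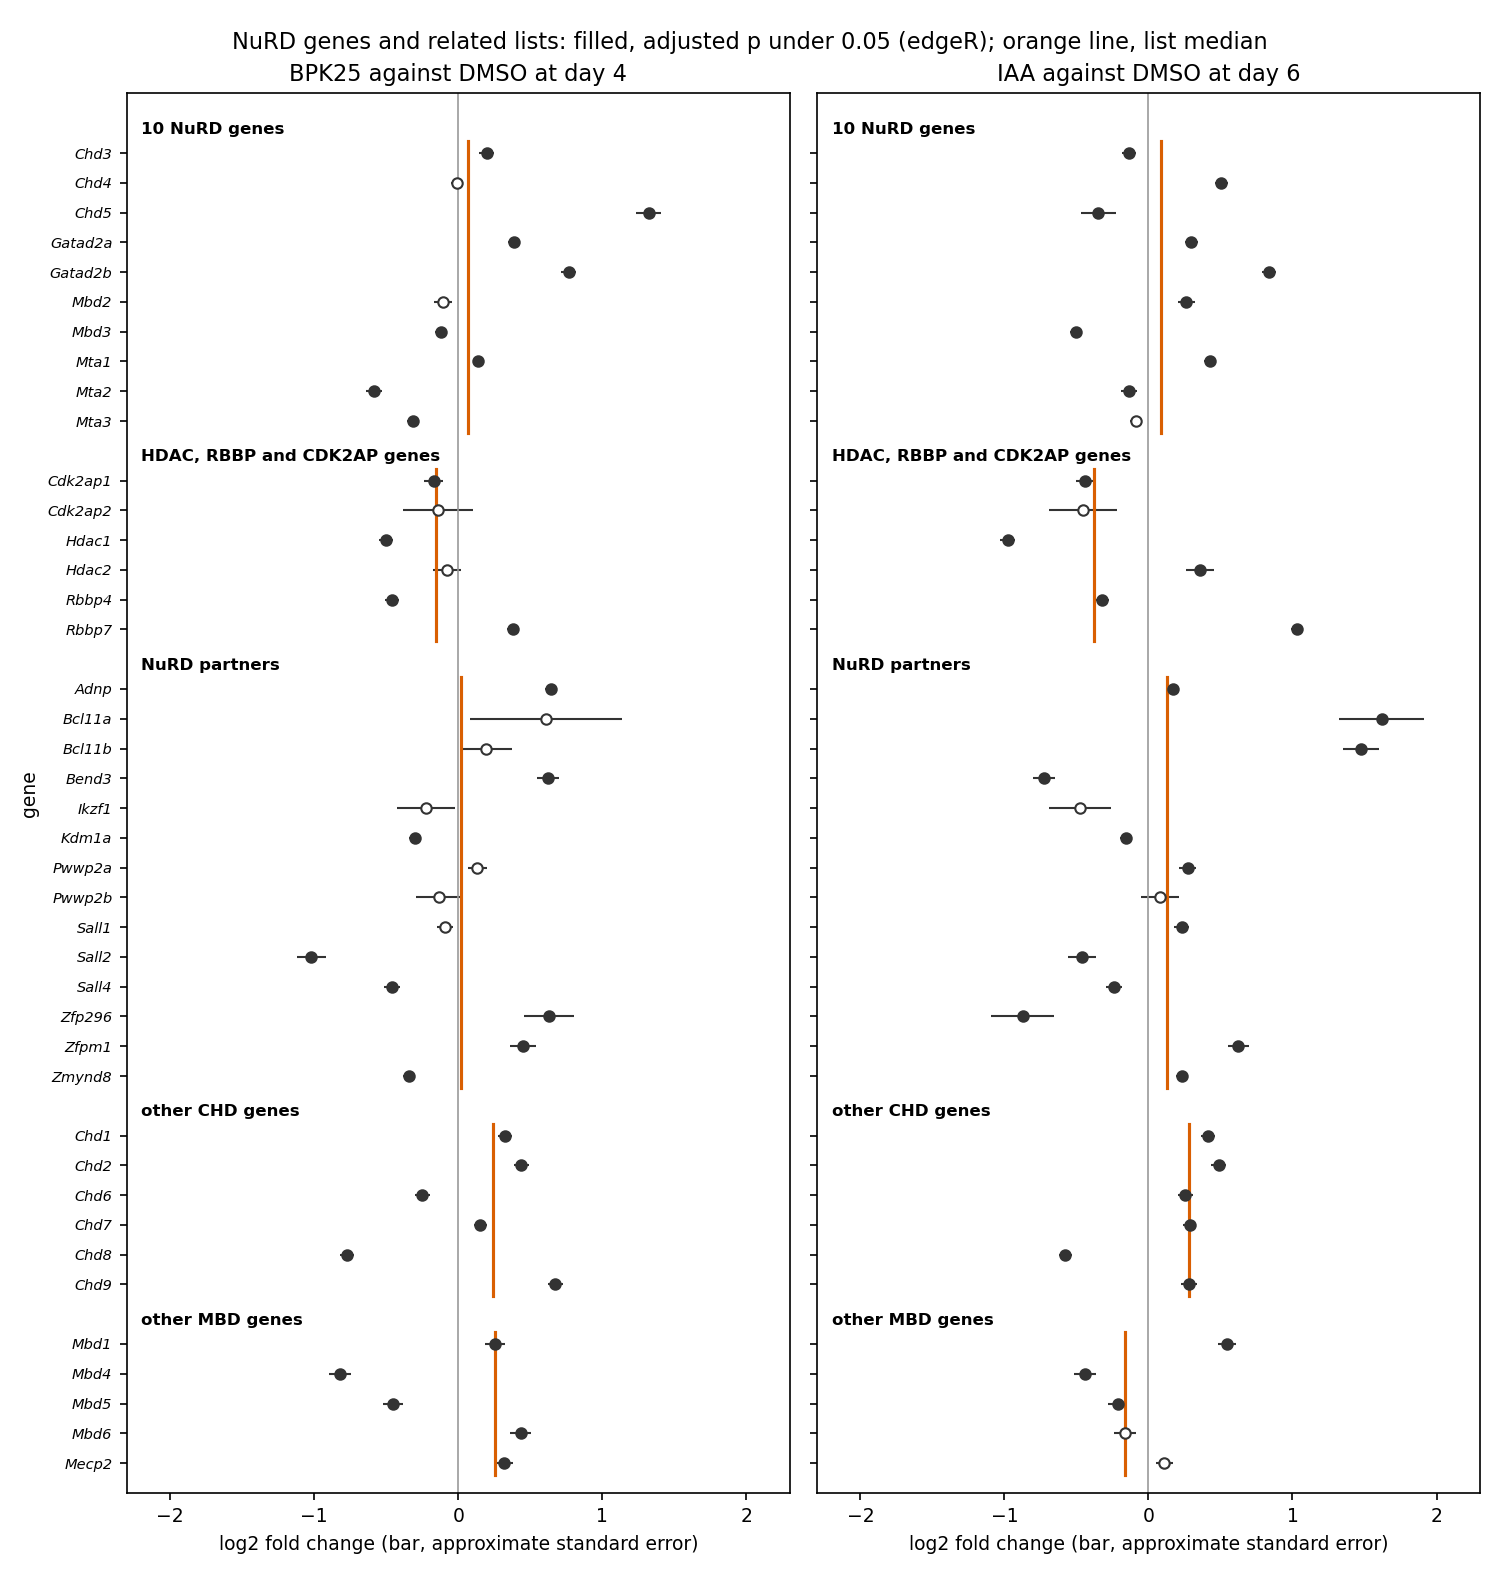
log2 fold change (horizontal axis; bars, approximate standard error) of each gene of the NuRD set and the related lists (vertical axis) in BPK25 against DMSO at day 4 and IAA against DMSO at day 6. Filled points passed an adjusted p under 0.05, orange lines are list medians, and Chd5 (1.32) lies farthest to the right in BPK25 at day 4.

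Across the 12 group means, which share libraries' treatments and days, the pairs of NuRD genes with the most similar pattern were Chd4 with Mta1 (Pearson r = 0.873) and Gatad2a with Gatad2b (r = 0.821). The most opposite were Chd3 with Mta3 (r = -0.916), Chd5 with Mbd2 (r = -0.865) and Mbd3 with Gatad2b (r = -0.805). Among 10526 named genes averaging 5 CPM or more, the gene most like each member was Col5a1 for Chd3 (0.966), Terf2ip for Chd4 (0.966), Slc1a5 for Chd5 (0.979), Smug1 for Mta1 (0.98) and Ndc80 for Mta2 (0.891). It was Cul2 for Mta3 (0.982), Tesk1 for Mbd2 (0.98), Parp12 for Mbd3 (0.924), Ccnk for Gatad2a (0.97) and Kcnq1ot1 for Gatad2b (0.982). Mta2 and Mbd3 had the weakest best match. These correlations are descriptions over 12 points.

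As whole profiles, BPK25 at day 4 was nearer to IAA at day 2 (distance 0.443) than to DMSO at day 4 (0.537), while BPK25 at the other days lay 0.196 to 0.23 from DMSO of the same day. IAA at day 2 was nearest to DMSO at day 4 (0.428), against 0.634 to DMSO of its own day. The part of a shift along the days in the same-day differences from DMSO was not tested. The distance is the root mean square difference of mean log2 CPM over the genes tested.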

How the data were processed

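RNA of mouse embryonic stem cells was made into libraries, per the labels' protocols. The authors deposited raw read counts per gene for 36 libraries, with gene identifiers and names per the file headers. Reads had been checked, aligned to mm10 and counted with FastQC 0.11.7, HISAT2 2.1.0 and featureCounts 2.0.1, and DESeq2 is also named, per the submitters' processing notes. For counting, strand and annotation were not given in the sources used here.

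Genes were filtered with edgeR's filterByExpr (minimum count 10, minimum total 15) and scaled by TMM. All libraries entered a fit of 12 groups with edgeR's quasi-likelihood test, two-sided, Benjamini-Hochberg adjusted over the 17394 genes tested, with calls at an adjusted p under 0.05. There were 15 comparisons of 2 groups and 2 joint tests with 3 degrees of freedom. The common biological coefficient of variation was 3.86%. Exon lengths came from GENCODE M21 on GRCm38 (99.7% of genes in the table matched), and promoter windows from RefSeq (entries of 7 of the 10 members were used).

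The genes named were all 10 members, at most 4 genes per list with the smallest p, and the gene most like each member, out of 2 the rule allows. The 3 blood cell markers summed to 0.388 to 5.76 CPM over the libraries. Members and lists were chosen with earlier results of these data known. Every replicate pair differed by more than sampling noise. The test was checked on counts simulated with means and spread estimated from these libraries. Such a check cannot show whether the replicates were cultured apart. Alternatives included RLE scaling, DESeq2, other filters, fewer libraries, a replicate block and leaving out each library. Software was edgeR 4.0.16 with limma 3.58.1, and DESeq2 1.42.0, under R 4.3.3.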

Additional observations from a re-analysis of the deposited data

Results flagged for a closer look

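The results here were singled out because the difference from DMSO varied between the days by edgeR's joint test, with p adjusted over all genes tested. Of all genes tested, 47.1% passed this test for BPK25 and 70.1% for IAA, so passing is not particular to these genes. No cause was tested.

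In BPK25 the remodeller genes gave adjusted p = 1.39e-13 for Chd5, whose difference was 1.32 at day 4 and -0.04 at day 0, and 0.0348 for Chd4. The MTA genes gave 4.94e-14 for Mta2, which was lower at days 0, 2 and 4 and higher at day 6, 0.0053 for Mta1 and 0.00184 for Mta3. Mbd3 gave 2.28e-07, with a rise at day 2 and a fall at day 4. Gatad2a and Gatad2b gave 1.26e-05 and 1.45e-14, each called at day 4 alone among the 4 days. With no filter on low counts, Chd4 (0.0679) and Mta1 (0.104) did not pass, and Chd4 was also lost without any of several libraries. Without day 4, only Mta2 and Mbd3 passed.

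In IAA the remodeller genes gave adjusted p = 2.5e-08 for Chd3, 1.2e-05 for Chd4 and 9.32e-08 for Chd5, which was higher at day 0 and lower at later days. The MTA genes gave 5.24e-09 for Mta1, 6.84e-07 for Mta2 and 4.97e-08 for Mta3. Mbd2 gave 1.76e-10, being lower at day 0 and higher at day 6, and Mbd3 gave 1.54e-11. Gatad2b, higher at all 4 days and most at day 6, gave 2.3e-06.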

How the results depend on the processing

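Of 150 member comparisons, 94 were called, and 80 of these kept their direction and call under every alternative run. Another 14 lost the call in at least 1 alternative, 9 uncalled values passed in at least 1, 0 called values reversed, and 11 uncalled values changed sign. The number of members called in BPK25 at day 0 (3) was 1 with no filter and 0 to 3 with 1 library left out, in BPK25 at day 6 (2) it was 1 to 3, and in DMSO at day 2 (2) it was 0 to 2. The joint test for BPK25 called 8 members with all days and 2 without day 4. Among all genes, the 1374 called in BPK25 at day 0 became 847 when BPK25 day 0 replicate 1 was left out, and 875 or 844 when DMSO day 0 replicate 1 or 2 was. The 1233 called in BPK25 at day 6 became 746 or 765 when BPK25 day 6 replicate 1 or 3 was left out, and 544 or 790 when DMSO day 6 replicate 1 or 3 was. The 946 called in DMSO at day 2 became 606 with only the libraries compared, 468 and 574 without DMSO day 0 replicate 1 or 3, and 412 without DMSO day 2 replicate 3. The 8196 of the BPK25 joint test became 1400 without day 4. The cause was not tested. Groups share replicate numbers. A replicate block changed 0 of the 94 calls, and same-numbered deviations correlated by -0.148 to 0.214. Differently numbered libraries were not compared and each group has 3 libraries, so whether the numbers pair libraries cannot be settled here.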
